A study of Mus musculus with 22 samples.

Results

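The genes of the gamma-secretase complex and of the ADAM proteases that cut Notch before it were followed on 22 arrays of mouse fetal liver haematopoietic stem cells. The members are named genes: Psen2, Ncstn, Aph1a, Aph1b, Aph1c and Psenen of the complex, and the proteases Adam10 and Adam17. All 8 were among the 22180 genes measured, with 10 probes that carry 1 gene symbol each, and 1 more probe that lists a member beside another gene was left out. Livers of wild-type C57Bl/6J embryos at E14.5, that is, in mid-gestation, were placed on OP9-DL1, a stromal line bearing the Notch ligand Dll1, and SLAM LSK cells were sorted after culture. LSK cells are negative for lineage markers and positive for Sca-1 and Kit, and SLAM markers narrow them to stem cells. The groups were cells treated with gamma-secretase inhibitor (GSI, 1 µM) for 4 h (n = 7), cells given the solvent DMSO for 4 h (n = 7), GSI for 10 h (n = 4) and DMSO for 10 h (n = 4), all on the same stroma. No group without Notch ligand or without culture was analysed here. Each replicate was a GSI and DMSO pair, so there were 7 such pairs after 4 h and 4 after 10 h. Codes in the sample descriptions place the 4 h pairs in 3 runs (pair 1, then pairs 2 and 3, then pairs 4 to 7) and the 10 h pairs in 2 runs (pairs 1 and 2, then pairs 3 and 4). The labels do not explain these codes.

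Gamma-secretase is a membrane-embedded protease. Presenilin is its catalytic subunit, nicastrin (Ncstn) its large glycosylated subunit, APH-1 (Aph1a, Aph1b or Aph1c) a scaffold, and PEN-2 (Psenen) the small subunit that completes the complex. A ligand-bound Notch receptor is first cut outside the membrane by ADAM10, and in some settings by ADAM17, and gamma-secretase then cuts the remaining stub inside the membrane, which frees the part that goes to the nucleus. GSI blocks that last cut by acting on the protein, so the arrays ask a separate question, whether transcript levels of the enzyme and of the ADAM proteases moved while the enzyme was blocked.

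The Notch target Hes1, which encodes a transcriptional repressor, served as the check on the drug. It fell with GSI in 7 of 7 pairs at 4 h (-0.97 ± 0.088, SE) and in 4 of 4 pairs at 10 h (-1.36 ± 0.117), with limma adjusted p = 0.000199 and 4.72e-05. It was the 1 gene that passed at 4 h. At 10 h its values were 5.25, 5.33, 5.27 and 5.21 in GSI, against 6.61, 6.54, 6.79 and 6.56 in DMSO. Values are log2 expression as deposited, and a difference is GSI minus DMSO on that scale.

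Sorted cells were checked against markers. Kit averaged 10.04 ± 0.20 in GSI and 9.97 ± 0.18 in DMSO at 4 h (SD, n = 7 each). Slamf1, the SLAM marker CD150, averaged 4.01 in GSI and 3.98 in DMSO at 4 h, below the array medians of 5.03 to 5.12, and 4.97 in GSI and 4.74 in DMSO at 10 h. Markers of cells the sort should remove were also measured: the mean of 6 of 7 hepatocyte markers ranged from 6.68 to 9.43 in GSI and from 6.27 to 9.70 in DMSO at 4 h, and the mean of 7 of 7 macrophage markers from 6.52 to 8.24 in GSI and from 6.57 to 8.17 in DMSO. The mean of 8 of 8 stromal markers ranged from 6.83 to 8.13 in GSI and from 6.54 to 8.46 in DMSO at 4 h. Another 4 measured genes were listed here as excluded by the gate, whose antibodies the sample titles do not name. Of these, the myeloid gene Itgam averaged 6.66 in GSI and 6.57 in DMSO at 4 h, above the array medians. Itgam is not shown to mark cells that the gate removes. Cd48 averaged 5.14 in GSI and 5.24 in DMSO at 4 h, and Ly6g and Cd3e lay below the medians. At 10 h Cd48 averaged 6.67 in GSI and 6.53 in DMSO, and Itgam 6.925 in GSI and 6.63 in DMSO. Both were above the array medians of that time, and Ly6g and Cd3e below them. The mean of 3 of 7 erythroid markers ranged from 6.07 to 7.38 in GSI and from 6.34 to 8.36 in DMSO at 4 h. The summed RNA of a sort cannot separate fewer cells of a type from less RNA per cell. Median values per array were 4.45 to 4.52 at 10 h, and both times look to have been normalized apart, so levels at 10 h and 4 h are set side by side without a test.

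Start regions are shown for Psenen, Ncstn, Adam10 and Aph1c, the 4 members with an unadjusted p under 0.05 at 10 h. The sequences are from RefSeq (GRCm38.p6) and run from 250 bases before to 50 after an annotated start, 5′ to 3′ on the gene's strand; Psenen has 2 such starts. Capitals mark matches, on either strand, to TGGGAA (the core bound by RBPJ, the DNA-binding partner of Notch), CCGGAAG (bound by ETS factors), GGGCGG (GC box), CACGTG (E-box), GCATGCGC (NRF1) and AAGATGGCG (YY1).
Psenen, chr7:30563155-30563454, minus strand: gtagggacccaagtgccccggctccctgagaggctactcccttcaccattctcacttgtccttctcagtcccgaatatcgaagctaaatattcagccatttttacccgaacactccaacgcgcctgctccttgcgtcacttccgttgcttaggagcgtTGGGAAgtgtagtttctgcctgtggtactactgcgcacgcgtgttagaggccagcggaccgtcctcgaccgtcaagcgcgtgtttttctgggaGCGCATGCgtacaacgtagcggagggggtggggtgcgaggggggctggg
Psenen, chr7:30563578-30563877, minus strand: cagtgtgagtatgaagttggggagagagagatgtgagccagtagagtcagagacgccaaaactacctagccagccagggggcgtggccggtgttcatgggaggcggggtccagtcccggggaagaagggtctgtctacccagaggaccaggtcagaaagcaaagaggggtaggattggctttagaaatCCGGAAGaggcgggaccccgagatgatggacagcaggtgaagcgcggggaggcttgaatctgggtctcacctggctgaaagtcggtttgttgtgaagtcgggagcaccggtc
Ncstn, chr1:172082700-172082999, minus strand: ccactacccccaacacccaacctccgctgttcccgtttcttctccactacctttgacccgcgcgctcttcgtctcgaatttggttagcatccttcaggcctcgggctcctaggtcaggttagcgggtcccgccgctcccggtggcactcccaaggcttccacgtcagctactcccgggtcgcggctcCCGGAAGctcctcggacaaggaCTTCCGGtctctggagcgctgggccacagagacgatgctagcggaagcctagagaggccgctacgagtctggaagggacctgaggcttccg
Adam10, chr9:70678732-70679031, plus strand: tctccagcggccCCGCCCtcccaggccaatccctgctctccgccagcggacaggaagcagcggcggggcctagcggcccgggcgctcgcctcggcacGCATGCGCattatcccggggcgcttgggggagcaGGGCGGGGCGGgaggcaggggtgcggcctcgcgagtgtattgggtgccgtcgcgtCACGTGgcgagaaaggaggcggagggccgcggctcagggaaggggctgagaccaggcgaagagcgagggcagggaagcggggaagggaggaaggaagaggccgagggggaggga
Aph1c, chr9:66834657-66834956, minus strand: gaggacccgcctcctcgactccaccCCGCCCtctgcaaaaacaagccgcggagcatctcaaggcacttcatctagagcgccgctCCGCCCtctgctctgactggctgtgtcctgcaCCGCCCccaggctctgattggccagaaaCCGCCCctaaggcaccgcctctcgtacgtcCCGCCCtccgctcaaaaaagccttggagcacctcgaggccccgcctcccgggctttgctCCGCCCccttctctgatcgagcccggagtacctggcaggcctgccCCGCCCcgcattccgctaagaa

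All 8 members had a window, 10 in all, with 47.7% to 73.3% G and C against a median of 52.7% over all windows. The RBPJ core was found in 3 of the 10, 1 each of Psen2, Aph1a and Psenen, and in 25.6% of 32851 windows in the table. The ETS letters were found in 4 of 10 (Ncstn, Aph1a, Psenen and Adam17) and in 8.86% of all windows. In Ncstn they occur at 2 places. The GC box was found in 6 of 10 and in 35.7% of all windows, with 7 matches in Aph1c and 3 in Adam10, of which 2 overlap. The E-box was found in 2 of 10 (7.15% of all), the NRF1 letters in 2 of 10 (2.71%) and the YY1 letters in 1 of 10, Adam17 (1.40%). A match describes these letters and is not shown to be a bound site. Aph1b and Aph1c are neighbours on chromosome 9, 17645 bases apart, and each symbol is listed as an older name of the other in the RefSeq gene table, so older reports may use the names the other way round. Aligned end to end, the Aph1c and Aph1b windows were identical at 53.3% of columns, and those of Aph1a and Aph1b at 53.0%.

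At 4 h no member passed the test across all genes (limma with the pair as a block, Benjamini-Hochberg adjusted p under 0.05), where 1 of 22180 genes did, 0.00451%, and none had an unadjusted p under 0.05, against 4.21% of all genes. No member had the same direction in all 7 pairs, as 1.82% of all genes had, and no member's GSI and DMSO ranges were apart, as for 0.0406% of all genes. Of the 8 differences 4 were above 0 and 4 below, where 54.3% of all genes were above 0. The 8 lay between -0.08 (Ncstn) and 0.07 (Aph1c). The median was 0.01 for the members and 0.01 for all genes. At the main probes the 95% intervals ran from -0.28 to 0.36 over all 8, or from 0.823-fold to 1.285-fold. Second probes reached further, with -0.51 to 0.05 for Aph1a and -0.29 to 0.55 for Psenen. The adjusted p was 0.999 for each.

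**Figure D1:**
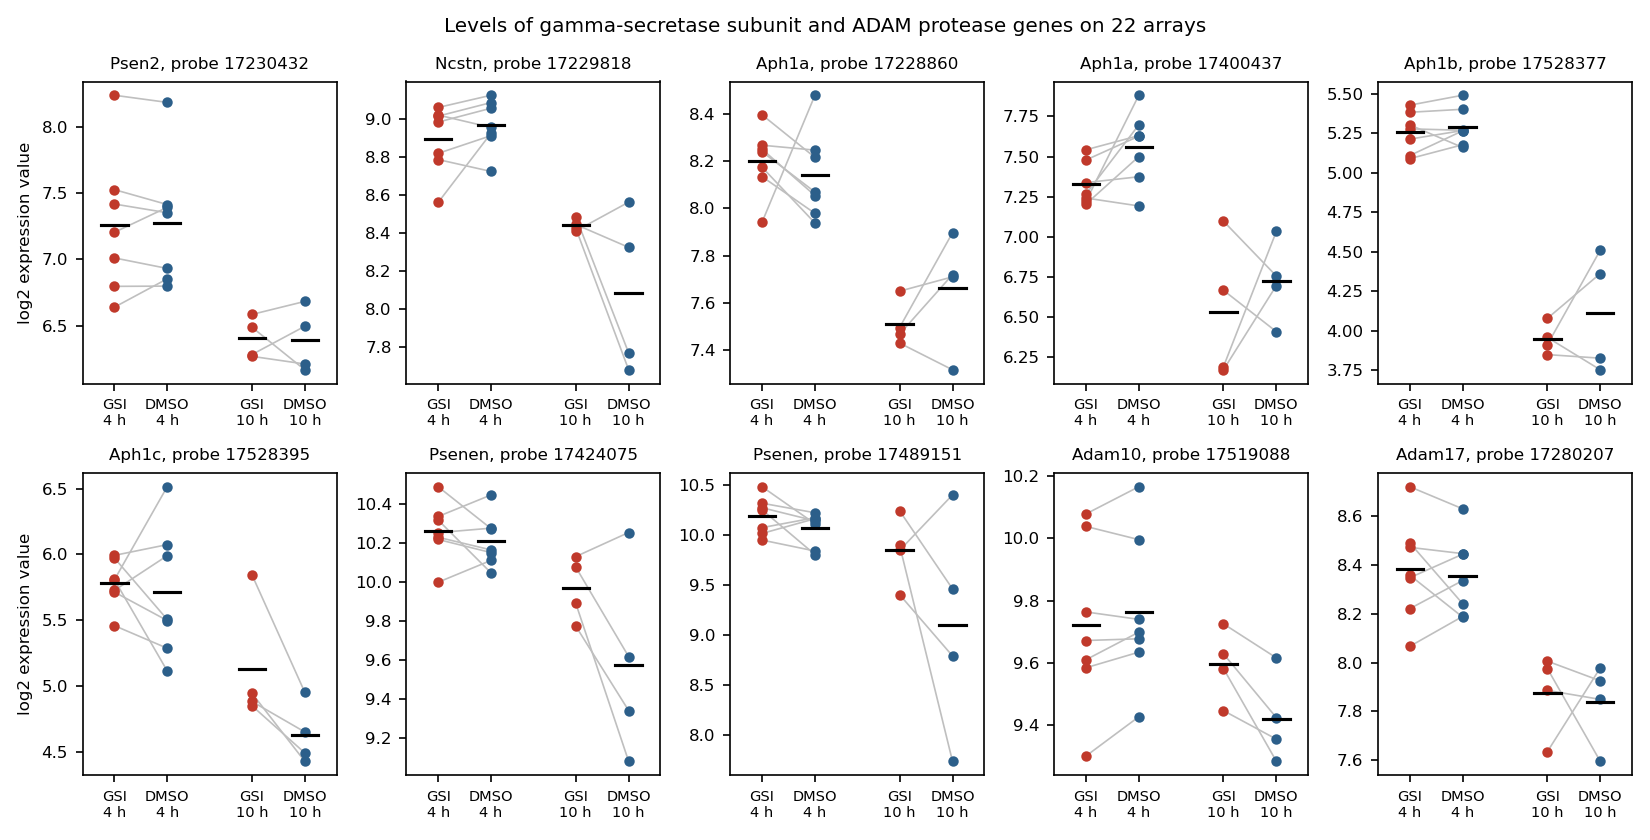
Log2 expression value (vertical axis) of each of the 10 probes of the 8 genes by group. Points are arrays, grey lines join the GSI and DMSO array of a pair and black bars are group means; GSI and DMSO overlap for every probe at both times.

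Psen2 encodes presenilin 2, a catalytic subunit. At 4 h its level ran from 6.64 to 8.24 with a median of 7.20 in GSI, and from 6.80 to 8.18 with a median of 7.35 in DMSO. Both arrays of pair 6 were far above the rest, at the same height. The difference was -0.01 ± 0.081 (SE, 7 pairs, adjusted p = 0.999, 95% interval -0.19 to 0.16).

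Ncstn, the nicastrin gene, had a median of 8.99 in GSI (8.56 to 9.06) and of 8.96 in DMSO (8.73 to 9.13) at 4 h. The GSI array of pair 7 was the lowest of the 14. Psenen had a median of 10.25 in GSI (10.00 to 10.49) and of 10.16 in DMSO (10.05 to 10.45), and its second probe medians of 10.25 in GSI and 10.14 in DMSO. The groups overlapped for both genes.

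Among the scaffold genes, Aph1a had a median of 8.24 in GSI (7.94 to 8.40) and of 8.07 in DMSO (7.94 to 8.48) at probe 17228860. It was higher with GSI in 6 of 7 pairs there, and lower in 6 of 7 at probe 17400437, where the medians were 7.27 in GSI and 7.63 in DMSO. These probes had differences of 0.06 ± 0.093 and -0.23 ± 0.130 (limma adjusted p = 0.999 for each), and correlated weakly over the 22 arrays (r = 0.29 of deviations from the mean of each time), so they give no single direction for Aph1a. The Psenen probes correlated at 0.81 on the same measure. Aph1b had a median of 5.28 in GSI and 5.27 in DMSO, close to the array median. Aph1c had a median of 5.81 in GSI (5.46 to 5.99) and of 5.51 in DMSO (5.12 to 6.51), with differences by pair from -0.71 to 0.69, the widest of the 8 main probes at 4 h.

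Adam10, the protease that makes the first cut in ligand-driven Notch signalling, had a median of 9.67 in GSI (9.30 to 10.08) and of 9.70 in DMSO (9.43 to 10.17) at 4 h. Its differences by pair had an SD of 0.0635, and its estimate, -0.04 ± 0.047, had the narrowest interval of the 8 (-0.14 to 0.06). Adam17, known also for releasing tumour necrosis factor from the cell surface, had a median of 8.36 in GSI (8.07 to 8.72) and of 8.34 in DMSO (8.19 to 8.63), with a difference of 0.03 ± 0.082.

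At 10 h no member passed either, where 148 of 22180 genes did, 0.667% (123 higher with GSI, 0.555%). Of the 8 genes 6 had differences above 0 and 2 below, where 46.2% of all genes were above 0. The median was 0.11 against -0.01 over all genes. An unadjusted p under 0.05 was found for 4 members and for 14.1% of all genes, and a common direction in every pair for 2 members (Aph1c and Adam10) and for 16.7% of all genes. GSI and DMSO ranges overlapped for all 8, and failed to overlap for 2.72% of all genes. The mean of 7 stem cell markers was 7.73, 7.75, 7.30 and 7.28 in GSI, against 6.88, 7.25, 7.01 and 6.86 in DMSO. The lowest GSI value (7.28, pair 4) was barely above the highest DMSO value (7.25, pair 2). Flt3 is counted in this mean, so it does not show that the other markers separate the groups. The part of this mean in the members' values was not tested. Flt3, a receptor gene of multipotent progenitors, had the widest gap of the 7 (6.17 in GSI and 4.90 in DMSO), followed by Mecom (7.68 in GSI and 6.86 in DMSO) and Hlf (7.22 in GSI and 6.498 in DMSO). Kit was at 9.30 in GSI and 9.14 in DMSO, and Procr at 6.87 in GSI and 6.92 in DMSO.

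**Figure D2:**
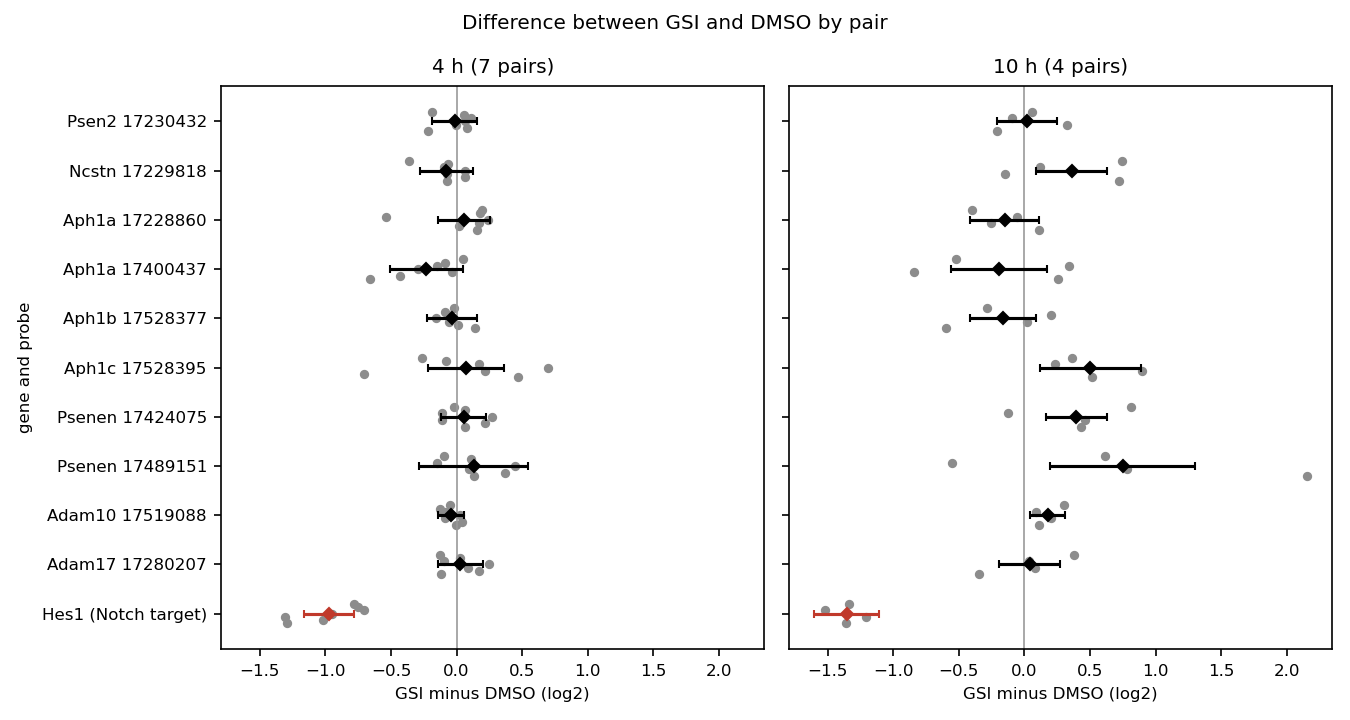
Difference between GSI and DMSO on the log2 scale (horizontal axis) for each of the 10 probes and Hes1, at 4 h (7 pairs) and 10 h (4 pairs). Grey points are pairs, diamonds the limma estimate with its 95% interval; the Hes1 interval ends at -0.78 at 4 h and -1.11 at 10 h, below every member's.

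Psenen had the smallest p of the 8 at 10 h. Its values were 9.77, 10.08, 10.13 and 9.89 in GSI, against 9.34, 9.62, 10.25 and 9.08 in DMSO (pairs 1 to 4). Pair 3 went the other way, and the DMSO arrays spread more widely (SD 0.50, against 0.17 in GSI). The difference was 0.40 ± 0.109 (SE, 3 of 4 pairs higher, limma adjusted p = 0.107, 95% interval 0.16 to 0.63), which did not pass. The fit shares each gene's spread between 4 h and 10 h. With the 10 h arrays fitted alone, the SE of Psenen was 0.140 (limma adjusted p = 0.538). Without pair 3 it was 0.57 and passed (limma adjusted p = 0.0144). Without pairs 1, 2 or 4 it was 0.38, 0.37 or 0.26 and did not pass. At its second probe the values were 9.89, 10.24, 9.84 and 9.40 in GSI, against 7.74, 9.46, 10.40 and 8.79 in DMSO, with a difference of 0.75 ± 0.259 (limma adjusted p = 0.201). Both probes have their lowest values on the DMSO arrays of pairs 1 and 4, in opposite order.

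Ncstn was almost constant with GSI and spread out without it. Its values were 8.49, 8.41, 8.45 and 8.43 in GSI (SD 0.033), against 7.77, 8.56, 8.32 and 7.68 in DMSO (SD 0.43). The DMSO arrays of pairs 1 and 4 again were the low ones. The difference was 0.36 ± 0.127 (3 of 4 pairs higher, limma adjusted p = 0.207). With the 10 h arrays fitted alone, its SE was 0.170 (limma adjusted p = 0.622). Leaving out 1 pair at a time gave 0.23 (without pair 4) to 0.53 (without pair 2) for Ncstn, and none of these passed (lowest limma adjusted p = 0.0506).

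The DMSO array of pair 4 also stood apart from the other 10 h arrays over many genes. Over the 2746 genes with a mean level above 8 at 10 h, the DMSO array of pair 4 had a median shift of -0.16, while the other 10 h arrays lay between -0.046 (DMSO of pair 1) and 0.054 (GSI of pair 3). Genes within 0.5 of the Ncstn level had a median difference of 0.061 in pair 1, 0.032 in pair 2, 0.035 in pair 3 and 0.19 in pair 4, beside 0.72, -0.15, 0.12 and 0.75 for Ncstn itself. In pair 1 94.3% and in pair 4 95.7% of those genes had a lower difference than Ncstn. For Psenen the share was 86.7% in pair 1 and 97.9% in pair 4, but 15.5% in pair 3. After cyclic loess normalization within each time, which removes such a shift, the differences were 0.28 for Ncstn and 0.33 for Psenen, and neither passed (limma adjusted p = 0.339 and 0.177). The part of array quality in these values was not tested.

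Aph1c had the largest difference of the 8 main probes at 10 h. Its values were 4.95, 5.85, 4.88 and 4.85 in GSI, against 4.43, 4.95, 4.65 and 4.49 in DMSO. In DMSO, pairs 1 and 4 lay just below their array medians (4.49 and 4.52), and pairs 2 and 3 above theirs (4.47 and 4.46). Each GSI array was above its partner, but the GSI arrays of pairs 1, 3 and 4 were below the DMSO array of pair 2. The difference was 0.50 ± 0.181 (4 of 4 pairs, limma adjusted p = 0.218, 95% interval 0.12 to 0.89) and 0.37 without pair 2. With the 10 h arrays fitted alone, the SE of Aph1c was 0.147 (limma adjusted p = 0.501). Its neighbour Aph1b had values of 3.91, 3.85, 3.96 and 4.08 in GSI, against 4.51, 3.83, 3.75 and 4.36 in DMSO, all below or near the array median, with a difference of -0.16 ± 0.119 (limma adjusted p = 0.569). Aph1a had values of 7.43, 7.47, 7.65 and 7.50 in GSI, against 7.32, 7.72, 7.71 and 7.90 in DMSO, and a difference of -0.15 ± 0.124, and its second probe -0.19 ± 0.172 (limma adjusted p = 0.626 and 0.661).

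Adam10 was a little higher with GSI in each pair. Its values were 9.73, 9.63, 9.45 and 9.58 in GSI, against 9.62, 9.42, 9.36 and 9.28 in DMSO. The difference was 0.18 ± 0.0625, a 1.13-fold change that did not pass (limma adjusted p = 0.210). With the 10 h arrays fitted alone, the SE of Adam10 was 0.0923 (limma adjusted p = 0.647). Genes of like level had median differences of 0.062, 0.020, 0.015 and 0.16 in the same pairs, and after cyclic loess normalization Adam10 was at 0.11 (limma adjusted p = 0.484). Adam17 had values of 7.63, 8.01, 7.89 and 7.98 in GSI, against 7.98, 7.93, 7.85 and 7.60 in DMSO. Pairs 1 and 4 went opposite ways by similar amounts, which left 0.04 ± 0.108. Psen2 had values of 6.28, 6.49, 6.59 and 6.27 in GSI, against 6.50, 6.17, 6.68 and 6.21 in DMSO, with a difference of 0.02 ± 0.107.

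The difference between the GSI effects at 10 h and 4 h was tested in the same fit. No member passed, where 0.018% of all genes did. The values nearest to the threshold were 0.22 for Adam10 (limma adjusted p = 0.413), 0.44 for Ncstn (0.420) and 0.34 for Psenen (0.467), and over all 8 they lay between -0.21 and 0.44. Averaged over both times, the GSI effects of the members lay between -0.10 (Aph1b) and 0.29 (Aph1c), and none passed, where 0.32% of all genes did, 0.266% higher with GSI (lowest limma adjusted p = 0.183, for Psenen).

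At 4 h the pairs of Psen2 and Adam10 differed more from each other than GSI and DMSO did within a pair. The SD of the 7 pair means was 0.50 for Psen2, against an SD of 0.13 for its pair differences, and 0.26 for Adam10, against 0.0635. The SD of pair means of Psen2 was higher than that of 92.2% of all genes, and for the middle gene it was 0.155. Psen2 pair means ran from 6.75 to 8.21, a 2.76-fold range, and from 6.75 to 7.47 without pair 6. Adam10 ran from 9.36 to 10.12, and from 9.61 to 10.12 without pair 6. The run moved with these levels: the 8 Psen2 arrays of run 3 lay between 7.20 and 8.24, above the 6 arrays of the other runs (6.64 to 7.01), and the 4 Adam10 arrays of run 2 between 10.00 and 10.17, above the other 10 (9.30 to 9.76), so culture and run cannot be told apart here. Adam10 was higher than 74.7% of all genes in its SD of pair means and Aph1c higher than 79.1%. The SD of pair means also exceeded that of pair differences for Aph1b (0.114 against 0.0936) and Adam17 (0.173 against 0.149) at 4 h. It did not for Psen2 at 10 h (0.169 against 0.231). From noise alone the mean of a pair varies less than its difference, so a lower SD of pair means does not show that pairs were alike. Over all genes the median SDs were 0.155 against 0.206 at 4 h and 0.155 against 0.244 at 10 h. For the 6 members other than Psen2 and Adam10 the SD of pair means lay between 0.0948 and 0.29 at 4 h.

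Psen2 was high where Adam10 was low. Over the 22 arrays, as deviations from the mean of each time, r was -0.67 (Spearman rho -0.55), a description without a test, since the arrays of a pair and of a run share their source. Without both arrays of pair 6 r was -0.45, and among the 6 other arrays of run 3 at 4 h it was 0.22. Among the 8 arrays at 10 h it was -0.03. Pair 6 stood apart in other ways: its arrays correlated least with the others at 4 h (median r 0.967 in GSI and 0.969 in DMSO), and the mean of 7 stem cell markers was lowest there, at 7.31 in GSI and 7.14 in DMSO, against 7.95 to 8.59 in GSI and 7.89 to 8.43 in DMSO in the other pairs. That marker mean correlated at -0.74 with Psen2 and 0.77 with Adam10 over the same 22 arrays. For the 4 markers listed as excluded by the gate, the mean correlated at -0.77 and 0.65. The mean of 7 macrophage markers correlated at -0.35 and 0.53. The part of cell composition in these levels was not tested.

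**Figure D3:**
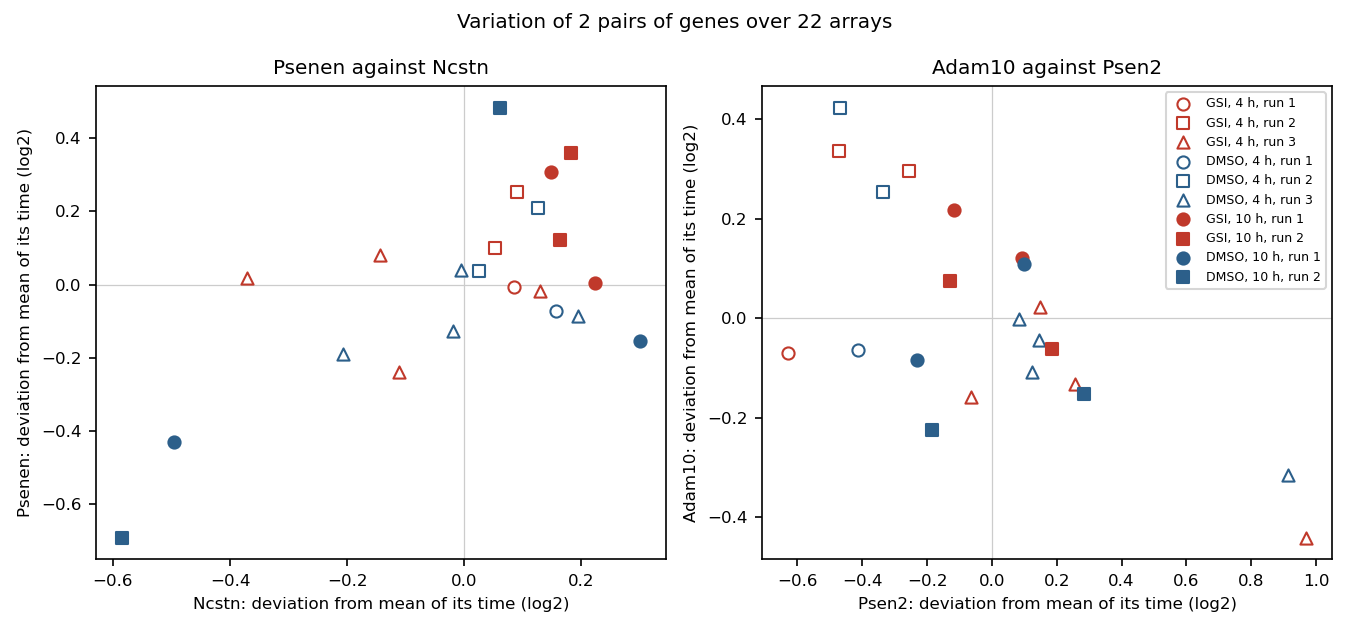
Deviation of each array from the mean of its time on the log2 scale, Psenen against Ncstn (left) and Adam10 against Psen2 (right). Red is GSI and blue DMSO, open symbols are 4 h and filled ones 10 h, and shapes are runs; the lowest points on the left are the 10 h DMSO arrays of pairs 1 and 4, and the 2 at the far right of the right panel are pair 6 at 4 h.

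Ncstn and Psenen moved together over the 22 arrays (r = 0.64, rho 0.35), and r was 0.22 without the 10 h DMSO arrays of pairs 1 and 4, so the relation rests on them. Within 4 h it was 0.26. Aph1b ran against both, with r of -0.75 to Ncstn and -0.68 to Psenen. Without the same 2 DMSO arrays of pairs 1 and 4 r was -0.48 and -0.40, and within 4 h -0.40 and -0.26. The other 24 of the 28 pairs of members had r between -0.44 and 0.46.

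The genes most like each member were taken by r of the same deviations over 22 arrays. For Psen2 they were Prpf3 (0.93), Ackr1 (0.92) and Slmap (0.92), and at 10 h alone r was 0.76, 0.26 and 0.14. For Adam10 they were Shld2 (0.92), Dcxr (0.88) and Siae (0.88). For Ncstn they were Klhdc3 (0.88), Mpdu1 (0.85) and Rbbp6 (0.85), and for Psenen Med28 (0.89), the ribosomal protein gene Rpl28 (0.88) and Mrps9 (0.87). Aph1c was closest to Arap1 (0.77), Casd1 and Pacs2, and Aph1a to 4930507D05Rik (0.84), Scp2d1 and Parg. Aph1b was closest to Abca12 (0.82), A830019L24Rik and Vmn1r198, whose mean levels of 2.98 to 3.66 lie below the array medians. Adam17 was closest to Msr1 (0.81), the macrophage scavenger receptor gene, Lilrb4a (0.76) and Kcnj5 (0.75), and its r to the mean of 7 macrophage markers was 0.63, a relation whose cause was not tested.

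Side by side at both times, each member had a lower value at 10 h than at 4 h, as most genes did. Both times look to have been normalized apart, and the part of this in the values was not tested. In GSI, Adam10 was 0.13 lower at 10 h, where genes of like level at 4 h were a median of 0.40 lower. In DMSO, Adam10 was 0.34 lower, against a median of 0.48. Aph1b was 1.31 lower in GSI and 1.18 lower in DMSO, against medians of 0.61 and 0.60 for genes of like level, and fewer genes of like level were lower still (7.46% in GSI and 10.3% in DMSO). Psen2 was 0.85 lower in GSI and 0.88 in DMSO, against 0.54 and 0.62. The shares of like genes below the member ranged from 7.46% to 71.2% in GSI and from 10.3% to 59.8% in DMSO over all 8. Time and run cannot be told apart here.

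Genes that work with the complex and the proteases, or are cut by them, were taken from 9 lists with 68 names, of which 65 were measured. None passed at 4 h or at 10 h. At 4 h 3 of the 65 had an unadjusted p under 0.05, against 4.21% of all genes, and at 10 h 14 of 65, against 14.1%.

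**Figure D4:**
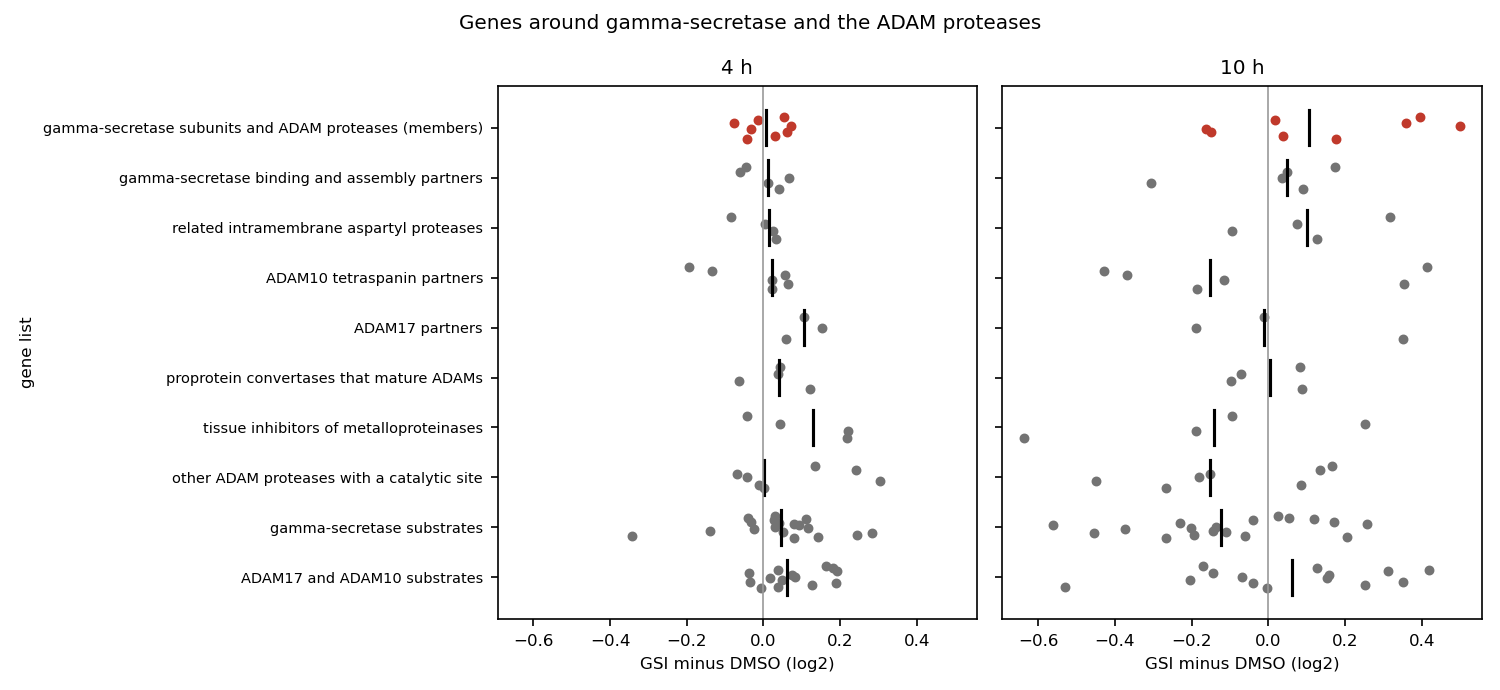
Difference between GSI and DMSO on the log2 scale (horizontal axis) for each gene of the members' list (red) and of 9 lists of partners, inhibitors, relatives and substrates (grey), at 4 h and 10 h. Bars are list medians, which lie between -0.15 and 0.13 in every list.

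Of the partners of gamma-secretase at 10 h, the trafficking protein gene Tmed10 was at 0.17 (4 of 4 pairs higher), Bsg at 0.09 and Gsap at -0.30 (limma adjusted p = 0.307, 0.671 and 0.529), and the median of 5 was 0.05. Of 4 related intramembrane aspartyl proteases, Sppl3 was at 0.32, Sppl2a at 0.13 and Sppl2b at -0.10, with a median of 0.10. The medians at 4 h were 0.01 for both lists.

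The tetraspanins that escort ADAM10 to the surface split at 10 h. Tspan5 was at 0.41, higher in 4 of 4 pairs, while Tspan33 was at -0.43 and Tspan17 at -0.37, lower in 4 of 4 pairs. None of these passed (limma adjusted p = 0.15 for Tspan5 and Tspan33 and 0.373 for Tspan17), and the median of 6 was -0.15. Among the ADAM17 partners, Frmd8, which stabilises the iRhom and ADAM17 complex, averaged 6.43 ± 0.32 in GSI and 6.08 ± 0.14 in DMSO (SD, n = 4 each), a difference of 0.35 ± 0.100 (limma adjusted p = 0.120). The iRhom genes Rhbdf1 and Rhbdf2 were at -0.19 and -0.01. Of the convertases that mature ADAM proteins, Furin was at 0.09, Pcsk5 at -0.10 and Pcsk7 at 0.08.

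Timp1, which encodes an inhibitor of metalloproteinases, averaged 7.29 ± 0.53 in GSI and 7.92 ± 0.49 in DMSO at 10 h, a difference of -0.64 ± 0.245 (3 of 4 pairs lower, limma adjusted p = 0.247). Timp3, an inhibitor of ADAM17, was at 0.25 and Timp2 at -0.19. The mean of 8 stromal markers was 6.42, 6.32, 5.34 and 5.07 in GSI, against 6.38, 7.15, 6.10 and 5.49 in DMSO at 10 h, with overlap and with pair 1 slightly higher in GSI, and its part in the Timp1 value was not tested. Of 7 other ADAM proteases, Adam19 was at -0.45, Adam12 at -0.27 and Adam28 at -0.18, and the median was -0.15.

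Of 18 substrates of gamma-secretase, 12 were below 0 at 10 h, with a median of -0.12. Over all genes 46.2% were above 0 at 10 h, with a median of -0.01. The Notch ligand gene Jag1 was lower in 4 of 4 pairs, at 5.18 ± 0.33 in GSI and 5.74 ± 0.59 in DMSO (-0.56 ± 0.152, limma adjusted p = 0.102), followed by Cxcl16 (-0.45) and Efnb2 (-0.37). Of 14 measured ADAM substrates 7 were above 0, with a median of 0.06. Csf1r, the receptor of macrophage colony-stimulating factor, was at -0.53 (0 of 4 pairs higher), Tnfrsf1a, a receptor of tumour necrosis factor, at 0.42 (4 of 4 higher) and F11r at 0.35 (limma adjusted p = 0.114, 0.122 and 0.164). The mean of 7 macrophage markers ranged from 5.39 to 6.30 in GSI and from 5.41 to 6.55 in DMSO at 10 h. Its part in the Csf1r value was not tested.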

How the data were processed

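The authors deposited log2 expression values of 1-colour, biotin-labelled arrays, for which the submitters' processing notes name Partek 6.6 and the RMA method; the genome build and annotation of the array are not given in the sources used here. Genes were named from GEO's platform annotation, which can be old: of 41345 probes 23521 had 1 gene symbol, 1814 several and 16010 none listed. The probe with the highest mean stood for a gene, which left 22180 genes; no dim gene was removed. Differences were estimated with limma 3.58.1 in R 4.3.3 (lmFit, eBayes with an intensity trend, 2-sided) in 1 fit of all 22 arrays with the pair as a fixed block, and p-values were adjusted over all genes. Second probes come from a fit of all 23521 probes. Precision is limited by how many arrays there were. The pairing is stated in the series' design text; as a check, deviations of partners correlated at 0.223 to 0.872 at 4 h and 0.213 to 0.449 at 10 h. The replicates are called biological there. No pair of arrays shared more than 48 identical probe values. The fit was tested on simulated data, in which each gene had the same spread at both times. That test therefore cannot show how the fit behaves where the spread differs between 4 h and 10 h. Alternatives changed the block, spread, trend, normalization, filter, probe, pairs and runs.

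The members, lists and motifs were chosen with earlier results of these data known. Genes named are all members, Hes1, the 3 genes most like each member by Pearson r, and in each list the 3 largest differences at 10 h and any that passed.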

Additional observations from a re-analysis of the deposited data

Results flagged for a closer look

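Of 60 series of values tested (40 of levels and 20 of pair differences), 3 held a sample far from the others, and chance alone flags about 1 series in 20. Aph1c stood at 5.85 on the GSI array of pair 2 at 10 h, where the nearest of the other 3 GSI arrays was at 4.95. The Ncstn difference between GSI and DMSO at 4 h was -0.37 in pair 7, and the nearest of the other 6 pairs was at -0.09. The Aph1a difference at 4 h was -0.54 in pair 5 at probe 17228860, and the nearest of the others was at 0.02.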

How the results depend on the processing

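Of the members' differences under other settings, 375 kept their direction and side of the threshold, 28 turned sign and 1 passed where it had not: Psenen at 10 h without pair 3, which brought the members called at 10 h to between 0 and 1 over the pairs left out. No member passed under any other setting, and the members called at 4 h stayed at 0. The cause of each change was not tested. Many of the 375 could not turn sign, since every pair is complete. Changing the block, spread, trend or filter, or fitting each time alone or each probe, left each difference as it was. Such settings can move only its SE and adjusted p. Without the replicate block 0 genes passed at 4 h and 0 at 10 h, with each time fitted alone 2 and 2, and with the spread set by time 3 and 19. Leaving out 1 pair gave 1 to 3 genes at 4 h (3 without pair 6) and 27 (without pair 4) to 228 (without pair 2) at 10 h. Within runs 148 genes passed at 4 h in run 2 (2 pairs) and 1 in run 3 (4 pairs), and 0 (run 1) and 15 (run 2) at 10 h. The 10 h count was 91 without the intensity trend, 47 after quantile normalization, 66 after cyclic loess, 269 over genes above the median level, and 9 in pairs 2 and 3 alone, a setting chosen after the data were seen.

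Quantile normalization turned Psen2 to -0.0416 at 10 h, -0.032 as the mean of both times and -0.0193 as the difference between times, and Adam17 to -0.0301, -0.0032 and -0.0539. Cyclic loess turned Psen2 to -0.0437, -0.0341 and -0.0194, and Adam17 to -0.0369, -0.009 and -0.0557. Aph1a at 4 h was -0.0851 as the mean of its probes and -0.23 at the other probe, where its difference between times was 0.0384. With 1 pair left out, Psen2 at 4 h lay between -0.0342 and 0.0203, Aph1c between -0.0331 and 0.20 and Adam17 between -0.0078 and 0.0543, while at 10 h Psen2 lay between -0.0846 and 0.0936 and Adam17 between -0.0753 and 0.1661. Within runs at 4 h, Psen2 was 0.0387 (run 2) and 0.011 (run 3) and Aph1c -0.25 (run 2), and at 10 h Adam17 was -0.13 (run 1) and Psen2 -0.0203 (run 2). In 10 h pairs 2 and 3 alone Ncstn was -0.0156 and Aph1b 0.11; the pairs left out there were those with the largest Ncstn differences, so these values say nothing on stability. Aph1b lies below the filter on dim genes and has no value there.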
